A study of Mus musculus with 12 samples.

Results

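The 10 genes described here are the bone morphogenetic protein (BMP) ligands Bmp2, Bmp4, Bmp6 and Bmp7, the secreted BMP antagonists Grem1 and Nog, and the Id genes Id1, Id2, Id3 and Id4. They were taken by name, with every probe set of the array that carries the symbol of 1 of them and of no other gene: 16 probe sets for 10 genes, of 34945 probe sets for 18193 genes. Of these, 9 genes passed the filter on low signals and were tested among 12835 genes. Nog did not pass it.

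The arrays measured total RNA of cultured mouse neural cells, all of them p53-/- and all from the BL6 strain, in 6 groups of 2 arrays. NSC are neural stem cells from the telencephalon at embryonic day 14.5, grown without serum as floating spheres with PDGF, bFGF and forskolin. OPC are oligodendrocyte precursor cells induced from NSC with PDGFAA, bFGF and 0.25% fetal calf serum and purified by sequential immunopanning, and AST are astrocytes induced from NSC by 10% fetal calf serum over 3 weeks. NSCL61, OPCL61 and ASTL61 are stable lines of those cells carrying HRasL61, an activated form of the small GTPase HRas. The lines were electroporated with the plasmids pCMS-EGFP-HRasL61 and pBabe-neo, selected in neomycin (0.5 mg/ml) and then sorted by their green fluorescent protein, steps that the parents did not go through, so their part cannot be told apart from that of HRasL61. The labels do not say whether the 2 arrays of a group came from separate cultures, and p-values then measure only the spread between these samples. In bulk RNA of this kind, fewer cells that express a gene and less RNA per cell cannot be told apart.

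BMPs are secreted dimers of the TGF-β superfamily. They bind complexes of type I and type II serine/threonine kinase receptors, which phosphorylate Smad1, Smad5 and Smad8 (Smad9). Those enter the nucleus with Smad4 and bind DNA at GC-rich elements and at the Smad box. Antagonists such as gremlin (Grem1) and noggin (Nog) bind the ligands outside the cell and keep them from their receptors. The Id genes are among the best known direct targets. Their proteins have a helix-loop-helix but no basic region, so they pair with E proteins and keep them from DNA and from neural partners such as the Olig and neurogenin factors. In the developing brain BMP signalling is known for favouring astrocytes at the expense of oligodendrocytes and neurons, and HRas acts through another route, the receptor tyrosine kinase and MAP kinase pathway.

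Values are the log2 signals the authors deposited, in which a step of 1 is a factor of 2. The filter value was 5.183, the median over all probe sets and arrays, and a probe set was kept if any group's mean exceeded it. Signals under it may be background, and a fold to or from such a signal may understate the change. A change was called where limma's p, adjusted by Benjamini-Hochberg over all 12835 genes, was under 0.05. Standard errors come from that fit, and means are given ± SD (n = 2). Signals of different probe sets are not compared with each other, because a probe set's response is its own.

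The arrays had medians between 5.157 and 5.211. The SD of the difference between the 2 arrays of a group, over the 12835 tested genes, was lowest in NSCL61 at 0.193 and highest in NSC at 0.416 and OPCL61 at 0.415. The 5′ control probe set for 18S ribosomal RNA read 11.67 to 12.59 on the second array of NSC, NSCL61 and OPC and 7.906 to 10.29 on the other 9 arrays, while the 3′ minus 5′ difference of Gapdh stayed between -0.28 and -0.095. The labelled cell types were checked against their markers. All 7 oligodendrocyte precursor markers lay above 5.183 in OPC, with summed linear signals of 28150 and 32930, and 6 of 7 did in OPCL61, with sums of 1584 and 1055. Of 8 astrocyte markers, 5 were above it in AST, where Aqp4, Slc1a2 and Aldh1l1 were under it, and 6 in OPC. Their summed signals were 3886 and 3573 in AST, 4668 and 5108 in NSC and 15110 and 14860 in OPC. Of 7 neural stem cell markers, 4 were above 5.183 in NSC, where Prom1, Fut4 and Lhx2 were under it, and 7 in NSCL61. The sums of this list were lowest in NSC, at 480 and 572, against 5131 and 4607 in NSCL61 and 4955 and 4616 in OPC. They were 4528 and 4063 in OPCL61, 2004 and 2267 in AST, and 2068 and 2160 in ASTL61. Sox2 had a group mean of 5.60 ± 1.685 in NSC and of 10.19 to 11.94 in the other groups. Markers of fibroblasts and pericytes, 9 in the list, gave sums of 57900 and 54870 in NSC with 9 of 9 above 5.183, against 511 and 643 in NSCL61 with 5 of 9. Those sums were 1504 and 497 in OPC, 596 and 361 in OPCL61, 30820 and 24590 in AST, and 33450 and 30180 in ASTL61. Microglial and endothelial lists had 1 marker each above 5.183 in every group.

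**Figure D1:**
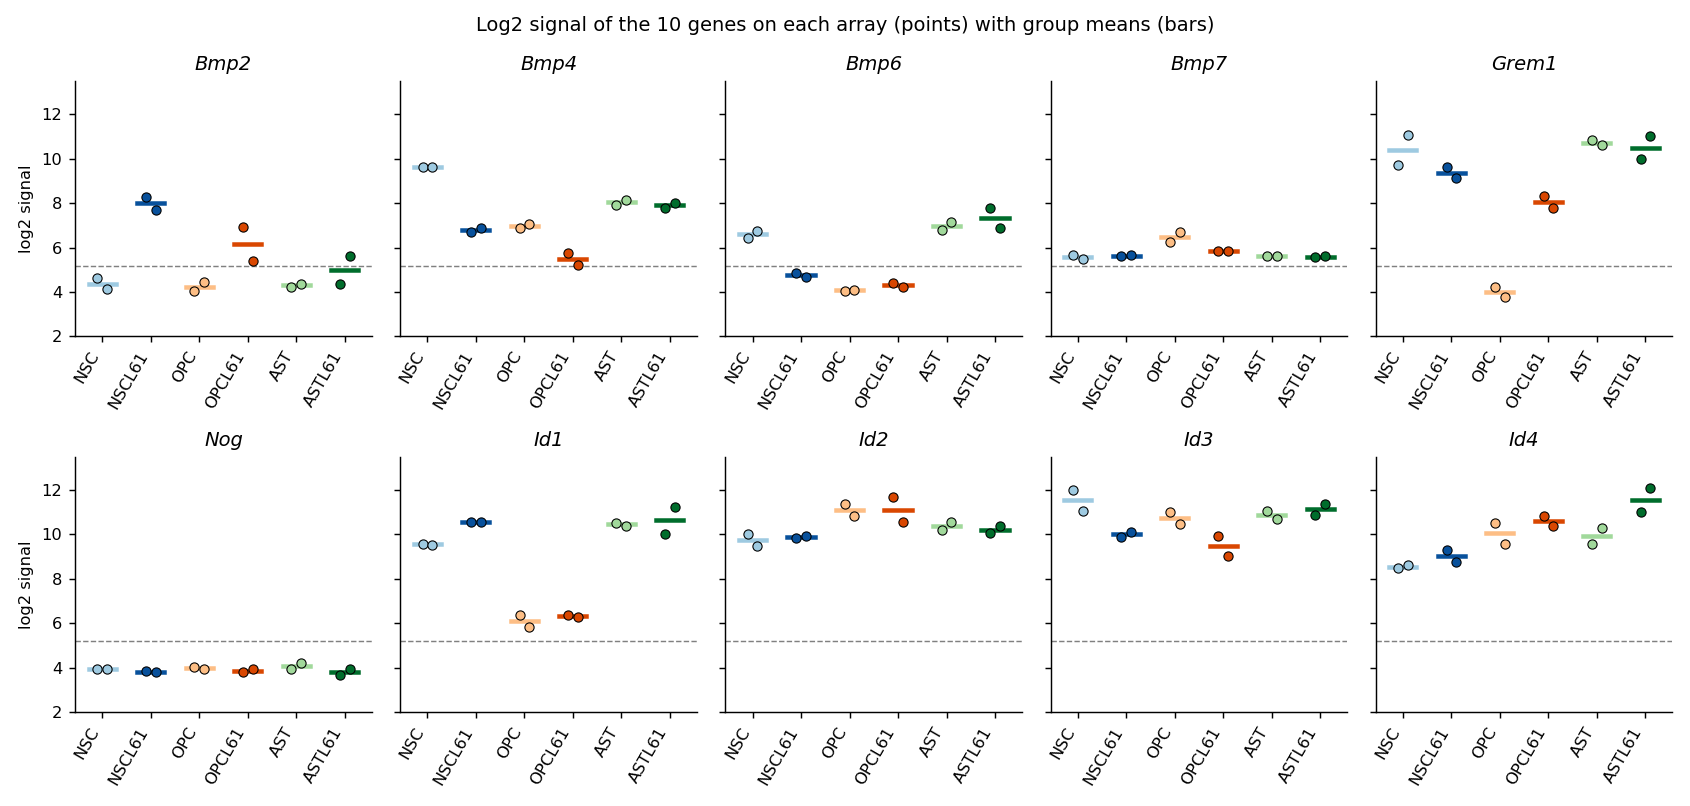
Log2 signal of the 10 genes on each of the 12 arrays, 1 panel per gene with the probe set used for the tests (for Nog, its only probe set). Points are arrays, bars are group means and the dashed line is the filter value of 5.183. Bmp2 is above the line in NSCL61 and OPCL61 and on 1 ASTL61 array, Grem1 is below it in OPC alone, and Nog is below it on all 12 arrays.

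The ligands Bmp2 and Bmp4, close relatives that share receptors, moved in opposite directions in the lines made from NSC and OPC. Bmp2 rose and Bmp4 fell in NSCL61 and in OPCL61, while neither passed the test in ASTL61. Bmp2 passed the filter only through its signal in NSCL61 and OPCL61, so its test there is not independent of the filter. Bmp6 fell in NSCL61 and Bmp7 fell in OPCL61. Of the 4 ligands, 1 rose and 2 fell against NSC and 1 rose and 2 fell against OPC, where 37.8% and 48.5% of all tested genes were called in either direction (20.7% higher and 17.1% lower for NSCL61, 24.5% higher and 23.9% lower for OPCL61). Against AST limma called none of the 4, with 0 of them under an unadjusted p of 0.05, where 0.0234% of all genes (3 of 12835) were called. At the shares of the first 2 comparisons the counts alone do not set the ligands apart from other genes.

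Bmp2 (probe set 1423635_at), best known for inducing bone and for its role in dorsal neural patterning, read 4.61 and 4.13 in NSC and 8.28 and 7.69 in NSCL61. It read 4.04 and 4.45 in OPC and 6.92 and 5.40 in OPCL61. In AST the values were 4.24 and 4.35, and in ASTL61 4.37 and 5.61. All 6 parental arrays lay under 5.183, so the gene entered the test only through its signal in NSCL61 and OPCL61. Its p-values for those lines are not independent of the filter, although both calls stood with no filter. The line arrays did not overlap with those of their parents in any of the 3 pairs, but the nearest arrays of AST and ASTL61 read 4.35 and 4.37. The 2 arrays of OPCL61 and of ASTL61 lay 1 or more log2 units apart. The change was 3.62 ± 0.51 (SE) in NSCL61 (adjusted p = 0.000503, limma), a 12.3-fold higher signal, and 1.92 ± 0.51 in OPCL61 (adjusted p = 0.0114), a 3.78-fold higher one. In ASTL61 it was 0.70 ± 0.51 (95% interval -0.44 to 1.84, adjusted p = 0.815). Without OPCL61 replicate 1 the OPCL61 change was 1.16 with an adjusted p of 0.0758, and without OPC replicate 1 it was 1.71 with an adjusted p of 0.0679, so that call rests on those arrays. Among the lines Bmp2 was highest in NSCL61: ASTL61 minus NSCL61 was -2.999 ± 0.51 (adjusted p = 0.00184, limma) and OPCL61 minus NSCL61 was -1.83 ± 0.51 (adjusted p = 0.0258). The last difference lost its call without NSCL61 replicate 1 (-1.53, adjusted p = 0.157), NSCL61 replicate 2 (-2.12, 0.0594) or OPCL61 replicate 2 (-1.07, 0.146). The parents overlapped with each other.

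Bmp4 (1422912_at), which patterns the dorsal telencephalon, was the ligand with the clearest steps between groups. It read 9.64 and 9.61 in NSC and 6.70 and 6.89 in NSCL61. The OPC arrays gave 6.88 and 7.05 and the OPCL61 arrays 5.75 and 5.19. In AST it read 7.93 and 8.13 and in ASTL61 7.79 and 8.01. NSC was highest, AST and ASTL61 overlapped below it, OPC and NSCL61 overlapped below those, and OPCL61 was lowest. Bmp4 fell by 2.83 ± 0.18 on the log2 scale in NSCL61 (7.12-fold, adjusted p = 4.22e-06, limma) and by 1.49 ± 0.18 in OPCL61 (2.82-fold, adjusted p = 0.000138). In ASTL61 the difference was -0.13 ± 0.18, and its 95% interval ran from -0.54 to 0.28 (adjusted p = 0.912). Among the parents OPC minus NSC was -2.66 ± 0.18 (adjusted p = 2.27e-06, limma), AST minus NSC was -1.60 ± 0.18 (adjusted p = 0.000316) and OPC minus AST was -1.07 ± 0.18 (adjusted p = 0.000913). Among the lines ASTL61 was 1.11 ± 0.18 above NSCL61 (adjusted p = 0.00157, limma), and OPCL61 minus NSCL61 was -1.32 ± 0.18 (adjusted p = 0.000786). The widest difference was OPCL61 minus ASTL61, at -2.43 ± 0.18 (adjusted p = 1.425e-05). The summed fibroblast and pericyte markers, from 57900 and 54870 in NSC to 511 and 643 in NSCL61, moved with the fall of Bmp4 there, and their part in it was not tested. In OPC and OPCL61, where Bmp4 also fell, 2 and 4 of the 9 markers lay above 5.183, with sums between 361 and 1504.

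Bmp6 (1450759_at), a ligand that also acts in iron balance, read 6.43 and 6.77 in NSC and 4.88 and 4.70 in NSCL61. It was 4.05 and 4.11 in OPC and 4.40 and 4.21 in OPCL61, under 5.183 on all 4 arrays. The AST arrays read 6.80 and 7.16 and the ASTL61 arrays 7.77 and 6.87. Its signal was thus above the filter value in NSC, AST and ASTL61 only, the 3 groups with the highest fibroblast and pericyte sums, whose part in it was not tested. It fell by 1.81 ± 0.26 in NSCL61 (3.51-fold, adjusted p = 0.000614, limma). The difference was 0.23 ± 0.26 in OPCL61 (95% interval -0.36 to 0.82, adjusted p = 0.502) and 0.34 ± 0.26 in ASTL61 (-0.25 to 0.93, adjusted p = 0.826). Among the parents OPC was lowest, with a log2 difference of -2.52 ± 0.26 from NSC (adjusted p = 3.66e-05, limma) and -2.90 ± 0.26 from AST (adjusted p = 1.59e-05). Among the lines ASTL61 was 2.54 ± 0.26 above NSCL61 (adjusted p = 0.000111, limma), and OPCL61 minus ASTL61 was -3.01 ± 0.26 (adjusted p = 3.61e-05). AST and NSC differed by 0.38 ± 0.26, which did not pass (adjusted p = 0.311).

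Bmp7, a ligand of the Bmp5, Bmp6 and Bmp7 subgroup, has 3 probe sets, and all 3 were highest in OPC. The tested one, 1435479_at, read 6.24 and 6.70 in OPC and 5.86 and 5.83 in OPCL61, and between 5.47 and 5.65 on the other 8 arrays. The other probe sets lay above 5.183 on the OPC arrays only: 1418910_at read 5.86 and 6.33 there, 4.66 and 4.36 in OPCL61 and 3.19 to 3.61 elsewhere. Probe set 1432410_a_at read 5.82 and 5.84 in OPC, 4.84 and 5.12 in OPCL61 and 3.60 to 4.32 elsewhere. Bmp7 fell by 0.62 ± 0.15 in OPCL61 (adjusted p = 0.00675, limma). The other probe sets passed the filter only through OPC, and their differences of -1.58 and -0.85 are given as values without a test. The oligodendrocyte precursor markers moved with it, from sums of 28150 and 32930 in OPC to 1584 and 1055 in OPCL61, and their part in the change was not tested. In NSC, where 1435479_at read 5.64 and 5.47, the sums of that list were 2076 and 2300, with 4 of 7 markers above 5.183. Without OPC replicate 2 the change of the tested probe set was -0.39 (adjusted p = 0.0480). OPC was higher than NSC by 0.91 ± 0.15 (adjusted p = 0.000681, limma) and higher than AST by 0.85 ± 0.15 (adjusted p = 0.000981). With the 3 probe sets averaged these differences were 1.85 and 1.81, and the OPCL61 change was -1.02. OPCL61 differed from NSCL61 by 0.21 ± 0.15 on 1435479_at, which did not pass (adjusted p = 0.337). On the other probe sets both of those groups had means under 5.183. In NSCL61 and ASTL61 against their parents the tested probe set differed by 0.08 ± 0.15 (95% interval -0.25 to 0.41) and -0.01 ± 0.15 (-0.35 to 0.32).

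**Figure D2:**
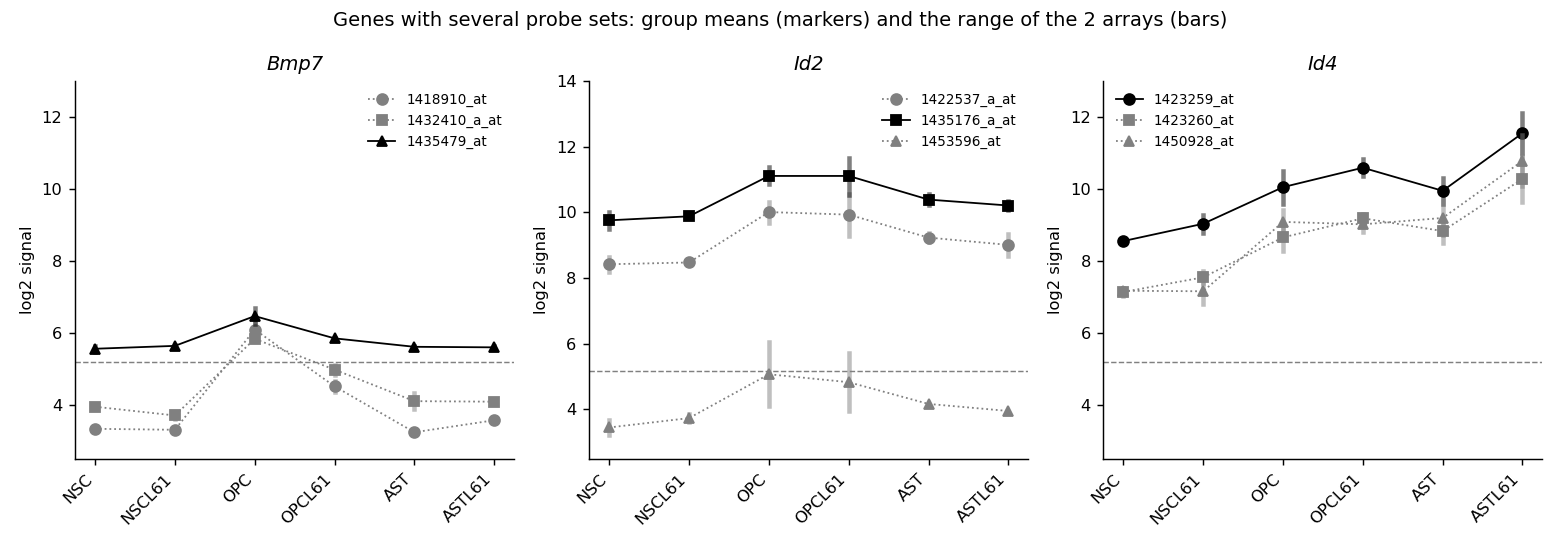
Log2 signal by group for every probe set of the 3 genes that have several (Bmp7, Id2 and Id4). Markers are group means, vertical bars span the 2 arrays, the black line is the probe set used for the gene and the dashed line is the filter value of 5.183. The 3 probe sets of Bmp7 all peak in OPC, and those of Id4 are all highest in ASTL61.

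Grem1 (1425357_a_at), an antagonist that binds Bmp2, Bmp4 and Bmp7, was the member with the widest range of group means, 6.72 log2 units. It read 9.71 and 11.07 in NSC and 9.63 and 9.12 in NSCL61. OPC gave 4.23 and 3.76, under the filter value, and OPCL61 8.31 and 7.77. AST gave 10.83 and 10.61 and ASTL61 9.97 and 11.04. The arrays of NSC, AST and ASTL61 overlapped with each other, NSCL61 and OPCL61 followed, and OPC stood apart at the bottom. Against OPC, OPCL61 was higher by 4.05 ± 0.46 (16.5-fold, adjusted p = 9.62e-05, limma). In NSCL61 the difference was -1.02 ± 0.46 (adjusted p = 0.115). Without NSC replicate 1 it was -1.70 and passed (adjusted p = 0.0174), and that array is the lower of the pair at 9.71. In ASTL61 it was -0.21 ± 0.46 (95% interval -1.26 to 0.83, adjusted p = 0.949). OPCL61 was still lower than ASTL61, with a log2 difference of -2.46 ± 0.46 (adjusted p = 0.00293, limma), and its difference of -1.33 ± 0.46 from NSCL61 did not pass (adjusted p = 0.0618). Among the parents OPC minus NSC was -6.39 ± 0.46 (adjusted p = 3.34e-06, limma) and OPC minus AST was -6.72 ± 0.46 (adjusted p = 2.84e-06). The fibroblast and pericyte sums were 57900 and 54870 in NSC, 30820 and 24590 in AST and 1504 and 497 in OPC. In NSCL61, where Grem1 read 9.63 and 9.12, they were 511 and 643. The part of these markers in the parental differences of Grem1 was not tested. Of the 9 markers in that list, 2 lay above 5.183 in OPC and 4 in OPCL61. Their mean log2 signals were 4.74 and 4.65 in OPC against 5.22 and 4.84 in OPCL61, and their sums 1504 and 497 against 596 and 361. Within the list the group mean of Col3a1 was 4.21 in OPC and 7.52 in OPCL61, that of Dcn 4.602 and 5.948, and that of Acta2 9.38 and 6.13. The part of these markers in the rise of Grem1 was not tested.

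Nog (1422300_at), whose protein noggin blocks the receptor-binding faces of the ligands, read between 3.67 and 4.22 on all 12 arrays. Its group means spanned 0.27, and no difference was detectable at these signals, all under 5.183.

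**Figure D3:**
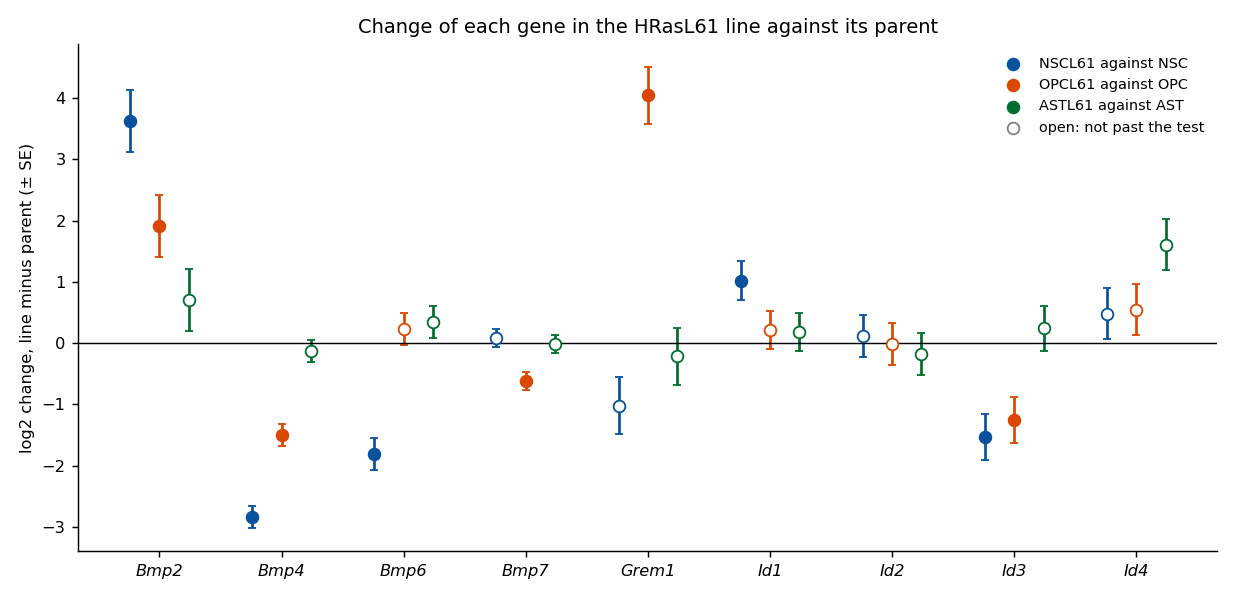
Log2 change of the 9 tested genes in each HRasL61 line against its parent, from the limma fit, with 1 standard error as bars. Filled points passed the test and open points did not. Bmp2 is filled above 0 and Bmp4 and Id3 below 0 for NSCL61 and OPCL61, Grem1 in OPCL61 is the highest point at 4.05, and all 9 points of ASTL61 are open.

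The 4 Id genes did not move together. In NSCL61 Id1 rose and Id3 fell, in OPCL61 Id3 fell, and none passed in ASTL61. Over all 9 tested members the median change was 0.08 in NSCL61, 0.22 in OPCL61 and 0.19 in ASTL61, where the medians over all genes were 0.036, 0.047 and 0.0013. Of those 9, 5 were called in NSCL61 (37.8% of all genes were), 5 in OPCL61 (48.5%) and 0 in ASTL61 (0.0234%). Between parents 7 were called for OPC against NSC (51.5% of all genes were), 2 for AST against NSC (30.4%) and 5 for OPC against AST (51.7%). Between lines 5 were called for OPCL61 against NSCL61 (26.7%), 5 for ASTL61 against NSCL61 (32.7%) and 5 for OPCL61 against ASTL61 (36.6%). Without NSCL61 replicate 1 the NSCL61 count was 3, and without OPC replicate 1 the OPCL61 count was 3. The OPCL61 against NSCL61 count was 2 without NSCL61 replicate 1 or 2 and 3 without OPCL61 replicate 1. The AST against NSC count was 1 without NSC replicate 1, NSC replicate 2 or AST replicate 2.

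Id1 (1425895_a_at), the Id gene most often used as a readout of BMP signalling, split the cell types more than it split lines from parents. It read 9.56 and 9.54 in NSC and 10.57 and 10.58 in NSCL61. OPC gave 6.35 and 5.85 and OPCL61 6.36 and 6.28, and AST gave 10.53 and 10.37 and ASTL61 10.04 and 11.23. The 4 arrays of OPC and OPCL61 lay at least 3 log2 units under all others. OPC minus NSC was -3.45 ± 0.32 (10.96-fold lower, adjusted p = 1.55e-05, limma) and OPC minus AST was -4.35 ± 0.32 (20.4-fold lower, adjusted p = 3.92e-06). The lines had the same order, with OPCL61 minus NSCL61 at -4.26 ± 0.32 (adjusted p = 1.87e-05) and OPCL61 minus ASTL61 at -4.32 ± 0.32 (adjusted p = 1.30e-05). Against their parents, NSCL61 was higher by 1.02 ± 0.32 (adjusted p = 0.0297), OPCL61 by 0.22 ± 0.32 (0.601) and ASTL61 by 0.19 ± 0.32 (0.932). The first call was lost without any 1 of the 4 arrays of NSC and NSCL61: it was 1.03 without NSC replicate 1 (adjusted p = 0.0868), 1.01 without NSC replicate 2 (0.0974), 1.03 without NSCL61 replicate 1 (0.109) and 1.01 without NSCL61 replicate 2 (0.111).

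Id2, known for its expression in oligodendrocyte precursors, ran the other way between cell types. The tested probe set, 1435176_a_at, read 10.02 and 9.497 in NSC, 9.82 and 9.94 in NSCL61, 11.38 and 10.85 in OPC and 11.67 and 10.54 in OPCL61. AST gave 10.22 and 10.56 and ASTL61 10.07 and 10.36. Its OPC arrays lay above those of NSC, NSCL61, AST and ASTL61, while 1 OPCL61 array fell within the range of AST. OPC was higher than NSC by 1.35 ± 0.34 (adjusted p = 0.00868, limma), a call lost without NSC replicate 2 (1.09, adjusted p = 0.0609) or OPC replicate 1 (1.09, 0.0682). OPCL61 was higher than NSCL61 by 1.23 ± 0.34 (adjusted p = 0.0269), a call lost without NSCL61 replicate 1 (1.17, 0.129), NSCL61 replicate 2 (1.29, 0.0947) or OPCL61 replicate 1 (0.66, 0.136). No line passed against its own parent: the changes were 0.12 (95% interval -0.65 to 0.89), -0.0059 (-0.78 to 0.77) and -0.17 (-0.95 to 0.60) in NSCL61, OPCL61 and ASTL61. Probe set 1422537_a_at gave 0.05, -0.08 and -0.22 for the same changes. The last, 1453596_at, did not pass the filter and read 3.21 to 6.04.

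Id3 (1416630_at), which often accompanies Id1 in responses to BMP, fell in the same lines as Bmp4. It read 12.02 and 11.05 in NSC and 9.91 and 10.09 in NSCL61. OPC gave 10.99 and 10.47 and OPCL61 9.95 and 9.02, and AST gave 11.06 and 10.71 and ASTL61 10.89 and 11.36. The line arrays lay under those of the parent in the NSC and OPC pairs and overlapped in the AST pair. Id3 fell by 1.54 ± 0.37 in NSCL61 (2.90-fold, adjusted p = 0.0103, limma) and by 1.25 ± 0.37 in OPCL61 (2.38-fold, adjusted p = 0.0207). In ASTL61 the change was 0.24 ± 0.37 (95% interval -0.60 to 1.08, adjusted p = 0.921). The fibroblast and pericyte sums, 57900 and 54870 in NSC and 511 and 643 in NSCL61, moved with the fall of Id3 there, and their part in it was not tested. They were 1504 and 497 in OPC and 596 and 361 in OPCL61, where Id3 also fell, and 30820 and 24590 in AST. The calls rest on single arrays: without NSC replicate 1 the NSCL61 change was -1.06 (adjusted p = 0.0693) and without NSCL61 replicate 1 it was -1.45 (0.0648). Without OPC replicate 1 the OPCL61 change was -0.99 (0.125), and without OPCL61 replicate 2 it was -0.78 (0.150). No pair of parents passed, with changes of -0.80 ± 0.37 for OPC against NSC (adjusted p = 0.103), -0.65 ± 0.37 for AST against NSC (0.229) and -0.15 ± 0.37 for OPC against AST (0.760). OPCL61 minus ASTL61 was -1.64 ± 0.37 (adjusted p = 0.00797), lost without OPCL61 replicate 2 (-1.17, 0.0539) or ASTL61 replicate 2 (-1.41, 0.0537).

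Id4 (1423259_at), which is known in neural precursors for holding back oligodendrocyte differentiation, was highest in ASTL61. It read 8.49 and 8.61 in NSC, 9.29 and 8.78 in NSCL61, 10.51 and 9.58 in OPC and 10.83 and 10.36 in OPCL61. AST gave 9.59 and 10.31 and ASTL61 11.01 and 12.10. The ASTL61 arrays lay above those of all other groups and 1.09 apart from each other. Against AST the difference was 1.60 ± 0.42, a 3.04-fold higher signal that did not pass (adjusted p = 0.358, limma). Its unadjusted p of 0.00363 was the only 1 of the 9 members under 0.05, which 941 of 12835 genes also were in that comparison. The other probe sets, 1423260_at and 1450928_at, gave 1.45 ± 0.40 and 1.58 ± 0.47. ASTL61 was higher than NSCL61 by 2.52 ± 0.42 (adjusted p = 0.00163), and OPCL61 was higher than NSCL61 by 1.56 ± 0.42 (adjusted p = 0.0219). Among the parents OPC was higher than NSC by 1.495 ± 0.42 (adjusted p = 0.0138) and AST than NSC by 1.40 ± 0.42 (0.0310). These last 3 calls depended on single arrays. OPCL61 against NSCL61 was lost without NSCL61 replicate 1 (1.82, adjusted p = 0.0536), NSCL61 replicate 2 (1.31, 0.137) or OPCL61 replicate 1 (1.33, 0.103). OPC against NSC was lost without NSC replicate 1 (1.43, 0.0591) or OPC replicate 1 (1.03, 0.111), and AST against NSC without NSC replicate 1 (1.34, 0.110), NSC replicate 2 (1.46, 0.0859) or AST replicate 2 (1.04, 0.199).

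Promoters are shown for Bmp4 and Id3, which fell together in NSCL61 and OPCL61, for Grem1, which rose in OPCL61, and for Id2 and Id4, which were higher in OPC than in NSC. RefSeq's promoter sequences for mouse build GRCm38.p6 run from 250 bases before to 50 bases after the gene start, 300 bases in all, and 6 of the 10 members matched. Capitals mark the GC-rich Smad element GGCGCC and the Smad box GTCT or its complement AGAC, searched on both strands. Each sequence runs 5′ to 3′ on the gene's own strand, at chr14:46390620-46390919 (minus) for Bmp4, chr4:136143572-136143871 (plus) for Id3, chr2:113758599-113758898 (minus) for Grem1, chr12:25096043-25096342 (minus) for Id2 and chr13:48260866-48261165 (plus) for Id4.
Bmp4: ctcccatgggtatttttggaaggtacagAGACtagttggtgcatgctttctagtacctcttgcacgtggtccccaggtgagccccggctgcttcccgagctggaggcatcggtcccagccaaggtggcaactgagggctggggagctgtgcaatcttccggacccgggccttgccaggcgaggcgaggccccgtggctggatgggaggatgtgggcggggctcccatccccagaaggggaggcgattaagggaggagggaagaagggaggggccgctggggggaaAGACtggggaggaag
Id3: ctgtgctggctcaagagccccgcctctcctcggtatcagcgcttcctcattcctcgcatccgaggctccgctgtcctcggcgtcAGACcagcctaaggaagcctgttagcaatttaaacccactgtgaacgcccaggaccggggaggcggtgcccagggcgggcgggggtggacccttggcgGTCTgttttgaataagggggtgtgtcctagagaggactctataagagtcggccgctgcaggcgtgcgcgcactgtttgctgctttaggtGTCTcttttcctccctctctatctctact
Grem1: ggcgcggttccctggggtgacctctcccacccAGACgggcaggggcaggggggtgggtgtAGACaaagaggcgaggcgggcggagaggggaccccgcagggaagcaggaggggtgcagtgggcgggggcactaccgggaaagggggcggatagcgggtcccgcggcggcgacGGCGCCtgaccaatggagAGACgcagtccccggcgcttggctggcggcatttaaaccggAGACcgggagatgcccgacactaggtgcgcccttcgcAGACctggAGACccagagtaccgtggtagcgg
Id2: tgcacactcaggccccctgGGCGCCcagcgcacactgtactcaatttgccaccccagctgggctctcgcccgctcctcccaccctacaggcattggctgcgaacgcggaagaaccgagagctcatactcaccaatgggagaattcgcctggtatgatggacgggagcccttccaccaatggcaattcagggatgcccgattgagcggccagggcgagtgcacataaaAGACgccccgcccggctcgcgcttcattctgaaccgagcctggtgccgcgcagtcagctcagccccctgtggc
Id4: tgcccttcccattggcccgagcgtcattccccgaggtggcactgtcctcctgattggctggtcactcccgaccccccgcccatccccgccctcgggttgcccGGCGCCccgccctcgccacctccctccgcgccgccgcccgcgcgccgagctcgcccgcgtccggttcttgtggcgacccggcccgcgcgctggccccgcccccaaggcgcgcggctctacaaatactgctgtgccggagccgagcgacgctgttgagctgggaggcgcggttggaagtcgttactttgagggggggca

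GGCGCC occurred once each in the windows of Grem1, Id2 and Id4 and not in those of Bmp4, Id3 or Bmp6, and 11.9% of all 32851 promoters of this length hold it. The Smad box occurred 2 times in Bmp4, 3 times in Id3, 6 times in Grem1, 1 time in Id2, 4 times in Bmp6 and not in Id4, and 88.0% of promoters hold at least 1. Bmp4 and Id3 therefore share the Smad box and the absence of GGCGCC, as most promoters do. The palindrome GTCTAGAC, held by 0.213% of promoters, and the cAMP response element TGACGTCA, held by 1.79%, were in none of the 6. The E-box CANNTG, at which basic helix-loop-helix factors bind, occurred 3 times in Bmp4, 2 times in Bmp6 and 1 time in Id2, and in 72.3% of promoters. The share of G and C was 60.0% in Id3 and 73.3% in Id4, the lowest and the highest of the 6, against a median of 52.7%. A match is a description of these letters, and a missing match says only that they are not in this window.

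Whether a gene's change from parent to line differed between cell types was tested as the difference of the 2 changes, each in log2 units. The 3 such tests share arrays with each other. For OPC against NSC, 4 members passed (37.9% of all genes did), for AST against NSC 4 (25.3%) and for OPC against AST 3 (35.4%). The AST against NSC count was 2 without NSCL61 replicate 1 or AST replicate 2. Bmp4 differed in all 3, with a fall in NSCL61 that was greater than that in OPCL61 by 1.34 ± 0.26 (adjusted p = 0.00298, limma) and greater than the change in ASTL61 by 2.70 ± 0.26 (adjusted p = 9.86e-05). The OPC line change minus the AST line change was -1.36 ± 0.26 (adjusted p = 0.00317). Grem1 changed more upward in the OPC line than in the NSC line, by 5.07 ± 0.65 (adjusted p = 0.000308), and than in the AST line, by 4.26 ± 0.65 (adjusted p = 0.00109). For Bmp6 the NSC line stood below the OPC line by 2.04 ± 0.37 (adjusted p = 0.00221) and below the AST line by 2.15 ± 0.37 (adjusted p = 0.00278). The Bmp2 change in the AST line minus that in the NSC line was -2.92 ± 0.72 (adjusted p = 0.0162), and in the OPC line minus the NSC line it was -1.71 ± 0.72, which did not pass (0.0901). The first was lost without NSC replicate 2 (-2.68, adjusted p = 0.0501), NSCL61 replicate 1 (-2.63, 0.0654) or AST replicate 2 (-2.87, 0.0561). Of the Id genes, Id3 alone passed in 1 of these tests: its change was 1.78 ± 0.53 higher in the AST line than in the NSC line (adjusted p = 0.0367), and this call was lost without 6 of the 12 arrays in turn, at values of 1.30 to 1.96.

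The other genes of the pathway were read from 8 lists of 62 genes, of which 43 were tested. In NSCL61, 4 rose and 16 fell, where 20.7% of all genes were higher and 17.1% lower, with a median of -0.12 against 0.036 over all genes. In OPCL61, 13 rose and 9 fell, where 24.5% of all genes were higher and 23.9% lower, with a median of 0.13 against 0.047. In ASTL61 none was called and 1 had an unadjusted p under 0.05, with a median of 0.15 against 0.0013.

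Of the other BMP and GDF ligands 4 of 10 were tested, and Bmp8b rose by 0.42 ± 0.14 in NSCL61 (adjusted p = 0.0387, limma) and Gdf2, which encodes BMP9, by 0.34 ± 0.12 in OPCL61 (0.0359). The first call was lost (a count of 0) without NSC replicate 2 or without any 1 of the arrays of NSCL61 or AST, and the second without any 1 of the arrays of OPC, OPCL61 or NSCL61.

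Among 9 of 10 receptors and co-receptors, 1 rose and 3 fell in NSCL61 (37.8% of all genes were called), and 4 rose and 4 fell in OPCL61 (48.5%). The OPCL61 count of 8 was 5 with probe sets averaged per gene, 4 with the filter at the 75th percentile and 3 with a log2 change of at least 1 required. Bmpr1a, a type I receptor, read 9.76 and 9.59 in NSC and 8.13 and 8.27 in NSCL61, and fell by 1.48 ± 0.16 (adjusted p = 0.00011, limma). Acvr1, the type I receptor ALK2, fell by 0.70 ± 0.17 in NSCL61 (adjusted p = 0.00894) and rose from 7.51 and 7.54 in OPC to 9.62 and 9.73 in OPCL61, by 2.15 ± 0.17 (adjusted p = 8.47e-06). The other type I receptor Bmpr1b went from 7.60 and 6.64 in OPC to 4.16 and 4.52 in OPCL61, where it fell by 2.78 ± 0.28 (adjusted p = 4.81e-05). Acvr1 and Bmpr1b thus moved in opposite directions in OPCL61. The co-receptor Rgma fell by 2.02 ± 0.19 there (adjusted p = 3.15e-05), and the type II receptor Bmpr2 fell by 0.62 ± 0.14 in NSCL61 (0.00729). Bmpr1a and Bmpr2 also fell in OPCL61, by 0.73 ± 0.16 (0.00484) and 0.53 ± 0.14 (0.0116). The co-receptor Rgmb rose in both lines, by 0.59 ± 0.14 in NSCL61 (0.0105) and 0.81 ± 0.14 in OPCL61 (0.00129). Without NSCL61 replicate 1, 2 receptors were called in that line instead of 4.

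Of the BMP Smads 3 of 4 were tested, and Smad5 fell by 0.52 ± 0.16 in NSCL61 (adjusted p = 0.0297, limma), a call lost without any 1 of the 4 arrays of that pair. In OPCL61 none was called, and 1 was without OPCL61 replicate 1, with quantile normalisation or with the filter at the 75th percentile. All 5 feedback inhibitors were tested. Smad6, an inhibitory Smad that BMP signalling itself induces, read 9.22 and 8.39 in NSC and 4.36 and 4.08 in NSCL61, where it fell by 4.58 ± 0.44 (adjusted p = 4.78e-05). Its parental levels also differed: 4.17 and 4.25 in OPC and 7.89 and 7.02 in AST. The ubiquitin ligase Smurf2 fell by 1.05 ± 0.19 in NSCL61 (0.00216). In OPCL61, 3 of the 5 rose and none fell, where 24.5% of all genes were higher and 23.9% lower: the pseudoreceptor Bambi by 0.86 ± 0.12 (0.000296), Smurf1 by 1.02 ± 0.22 (0.00361) and the inhibitory Smad7 by 0.85 ± 0.22 (0.0114).

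Of 10 tested extracellular antagonists and modulators in a list of 15, 1 rose and 5 fell in NSCL61, where 37.8% of all genes were called. Fstl1, a follistatin-like glycoprotein, fell from 12.91 and 12.93 in NSC to 9.17 and 9.503, by 3.58 ± 0.32 (adjusted p = 2.79e-05, limma). Bmper, a secreted BMP-binding modulator, fell by 2.03 ± 0.33 (0.00123) and Twsg1, which acts with chordin, by 0.70 ± 0.15 (0.00584). The fibroblast and pericyte sums went from 57900 and 54870 to 511 and 643 in the same pair, and their part in these falls was not tested. In OPCL61, 4 rose and 1 fell, where 48.5% of all genes were called. Bmp1, a protease that cleaves chordin and is no BMP ligand despite its name, rose by 1.15 ± 0.24 (0.00308). The activin and BMP antagonist Fst rose here too, from 4.80 and 4.99 to 6.26 and 7.16, by 1.82 ± 0.41 (0.00504). Dand5 fell by 0.38 ± 0.13 (0.0375). Without NSCL61 replicate 2 the first count was 2 instead of 6. The second was 2 or 3 instead of 5 without OPC replicate 1 or 2, OPCL61 replicate 1, NSCL61 replicate 1 or 2, or AST replicate 1 or 2.

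Among 4 of 6 other BMP targets, 1 rose and 3 fell in NSCL61, where 37.8% of all genes were called. The homeobox genes Msx1 and Msx2 fell, Msx1 from 9.98 and 8.04 to 5.78 and 5.85, by 3.20 ± 0.53 (adjusted p = 0.00129, limma), and Msx2 from 7.82 and 8.23 to 5.13 and 5.63, by 2.64 ± 0.29 (0.0001). Atoh8 fell by 0.96 ± 0.27 (0.0194). Hey1 was the 1 that rose, from 7.80 and 5.48 in NSC to 8.56 and 8.53 in NSCL61, by 1.90 ± 0.60 (0.0317). The count was 2 without NSCL61 replicate 1 or 2. Msx2 rose by 0.86 ± 0.29 in OPCL61 (0.0317), a call lost without OPC replicate 1 or OPCL61 replicate 2. The fall of Smad6, Msx1 and Msx2 in NSCL61 went with that of the fibroblast and pericyte markers and of Bmp4. It went against the higher Id1 and Hey1, and the part of those markers was not tested.

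The binding partners of the Id proteins were read too. Of the 3 E protein genes, Tcf3 fell by 0.53 ± 0.18 in NSCL61 (adjusted p = 0.0438, limma), a call lost without any 1 of the arrays of NSC, NSCL61, OPC or AST. Tcf12 fell by 0.77 ± 0.13 in OPCL61 (0.00084), where 2 E protein genes were called without OPCL61 replicate 1. Of 9 neural basic helix-loop-helix factors 5 were tested. In OPCL61 the oligodendrocyte factors Olig2 and Olig1 fell, Olig2 from 12.31 and 12.24 to 6.82 and 5.90, by 5.91 ± 0.25 (2.22e-07), and Olig1 by 4.92 ± 0.17 (8.55e-08). The Notch target Hes5 fell there by 3.46 ± 0.14 (2.06e-07). Olig1 also passed in NSCL61, where all 4 arrays were under 5.183, and lost that call without NSC replicate 1 or either NSCL61 array. Olig1 and Olig2 are also in the oligodendrocyte precursor marker list, whose sums fell from 28150 and 32930 in OPC to 1584 and 1055 in OPCL61.

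**Figure D4:**
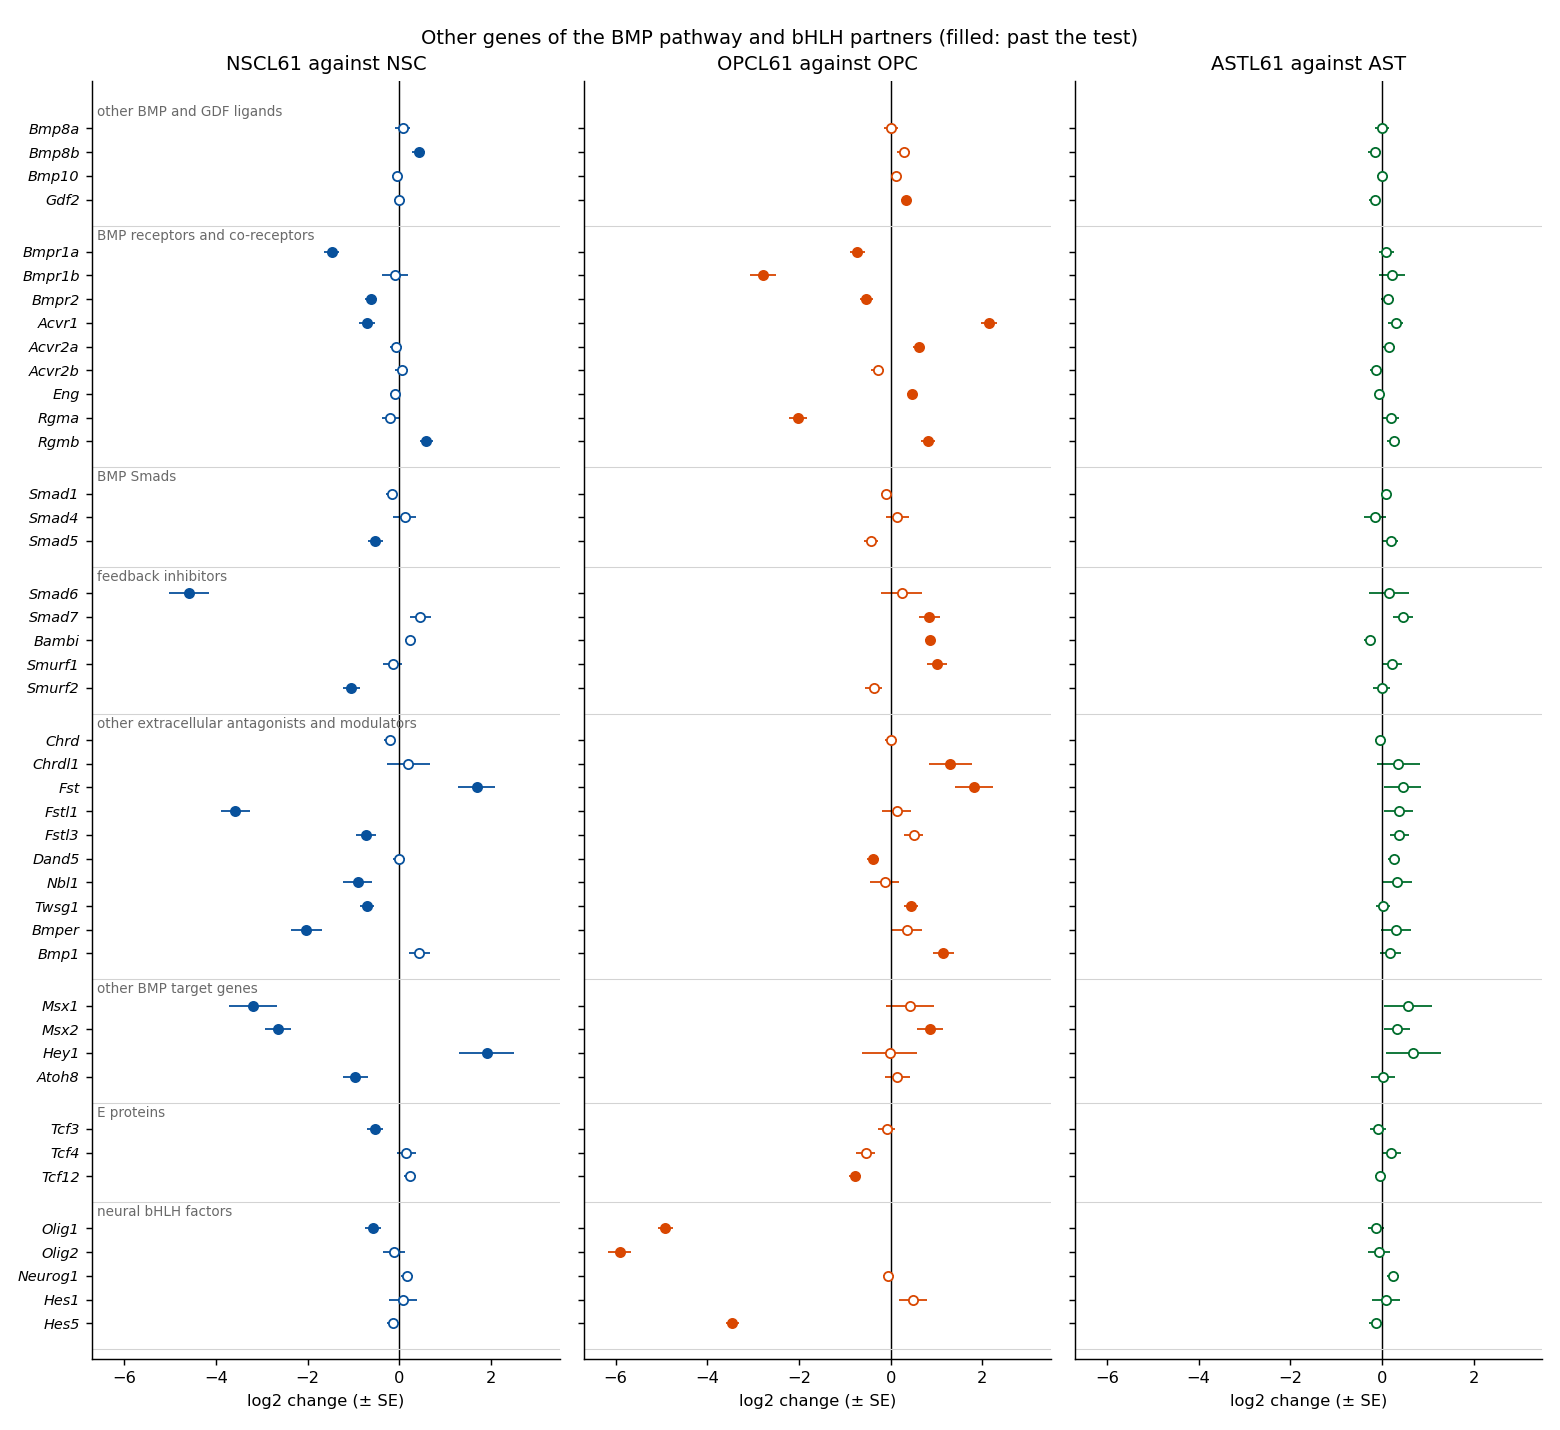
Log2 change of the 43 other tested pathway genes in each line against its parent (x axis), grouped by list, with 1 standard error from the limma fit. Filled points passed the test. Smad6, Fstl1, Msx1 and Msx2 lie furthest to the left for NSCL61, Olig1, Olig2 and Hes5 for OPCL61, and all 43 points are open for ASTL61.

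For each member the 3 genes with the most similar profile were taken by Pearson's r over the 6 group means, among the genes whose means ranged over at least 2 log2 units, 2521 or 2522 of them. With 6 points from shared arrays these values are a description and carry no p. The profile of Bmp6 was followed by Bmper (r = 0.999), Dlc1 (0.991) and the chemokine Cxcl12 (0.990). Bmp4 was followed by Tsc22d3, Cacna1c and Cpq (0.990, 0.990 and 0.983), and Bmp2 by Ercc1, Wdr44 and Spint1 (0.993, 0.992 and 0.991). Bmp7, high in OPC, was followed by Pde9a, Pou4f1 and Tnr (0.9997, 0.999 and 0.999), and 429 genes had an r over 0.9 with it. Grem1, low in OPC, was followed by Serpinb6a, Myo1c and Piezo1 (0.997, 0.996 and 0.996). Id1 was followed by Btbd6, Plscr1 and Plin2 (0.999, 0.997 and 0.996), Id2 by Epop, En2 and Spata13 (0.963, 0.963 and 0.952), and Id3 by Speg, Lrp1 and Cdh11 (0.995, 0.991 and 0.990). Id4 had the least company: Cxcl14 alone exceeded 0.9 (0.955), with Lcn2 (0.888) and Slpi (0.831) after it. Among the 36 pairs of tested members r ran from -0.986 for Bmp7 with Grem1 to 0.938 for Bmp4 with Id3. Id1 had an r of -0.864 with Id2 and 0.843 with Grem1.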

How the data were processed

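The authors deposited 1 log2 signal for each probe set and array, 12 arrays in all. How they corrected, summarised and normalised the scans is not given here in any source used. The array number limits the precision. Of 45101 probe sets, 64 are controls, 34945 others have 1 gene symbol in the platform annotation and 932 have several, which named no gene. Probe sets with a mean above 5.183 in at least 1 group were kept (23080 with 1 symbol), and a gene was read from its kept probe set with the highest mean. The 12 arrays entered 1 linear model with a mean for each of the 6 groups (limma, version 3.58.1, R, version 4.3.3, and the data.table package, version 1.17.8), with 6 residual degrees of freedom (9.302 with the moderation), 2-sided tests and Benjamini-Hochberg adjustment over 12835 genes, at 0.05. The fit was tested on simulated data. No change was adjusted over a list alone.

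The members, lists, markers and tests were chosen with earlier results of these data known. All members are named, and in each other list up to 3 called genes with the smallest p per line. Some further called genes are named beside them. Motifs were counted in RefSeq promoters. Alternatives were another normalisation, filter, probe set rule, prior, array weights, threshold, replicate block, fewer arrays in the fit and leaving out each array.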

Additional observations from a re-analysis of the deposited data

Results flagged for a closer look

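These results stand here because a gene's change from parent to line, on the log2 scale, differed between cell types by a direct test of the difference in limma (adjusted p over 12835 genes). The 3 such comparisons share arrays with each other.

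The change in the OPC line was above that in the NSC line for Bmp4 by 1.34 ± 0.26 (SE, adjusted p = 0.00298), for Bmp6 by 2.04 ± 0.37 (0.00221) and for Grem1 by 5.07 ± 0.65 (0.000308). For Bmp7 the difference was -0.70 ± 0.21 (adjusted p = 0.0255), and this call was lost without NSC replicate 2 (-0.61), NSCL61 replicate 1 (-0.71), NSCL61 replicate 2 (-0.68), OPC replicate 2 (-0.47) or OPCL61 replicate 2 (-0.68).

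The change in the AST line was above that in the NSC line for Bmp4 by 2.70 ± 0.26 (adjusted p = 9.86e-05), for Bmp6 by 2.15 ± 0.37 (0.00278) and for Id3 by 1.78 ± 0.53 (0.0367). For Bmp2, which passed the filter only through NSCL61 and OPCL61, the difference was -2.92 ± 0.72 (adjusted p = 0.0162). Without NSC replicate 1 the Id3 value was 1.30 (adjusted p = 0.0972).

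The change in the OPC line differed from that in the AST line for Bmp4 by -1.36 ± 0.26 (adjusted p = 0.00317) and for Grem1 by 4.26 ± 0.65 (0.00109). For Bmp7 the difference was -0.60 ± 0.21 (adjusted p = 0.0483) on the probe set used. That call was lost in 20 of 23 alternatives, among them quantile normalisation (-0.54, adjusted p = 0.0748), median centring (-0.58, 0.0556), array weights (0.0670) and leaving out any 1 of the arrays other than OPC replicate 1. It was -0.37 without OPC replicate 2 (adjusted p = 0.140). The direction was the same in all 23. The value was -1.12 when the gene's 3 probe sets were averaged. The probe sets other than the tested one passed the filter only through OPC, so that value is given without a test.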

How the results depend on the processing

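Of 50 called changes of member genes, refitted under the alternatives for 1166 values, 1087 kept their direction and their side of the threshold, 79 kept the direction and lost the threshold, and 0 reversed. The 17 uncalled changes of a line against its parent gave 400 values, of which 12 reversed and 1 passed the threshold. With the filter at the 75th percentile, 7.562, the count of members called fell from 4 to 2 for the OPC against NSC line changes. For OPC minus AST it fell from 5 to 3. Bmp6 and Bmp7, called in both comparisons, had highest group means of 7.322 and 6.465. They did not pass that filter and were not tested. Leaving out each array in turn gave counts of 2 to 4 for the AST against NSC line changes, 1 to 3 for AST minus NSC, 3 to 5 for NSCL61 minus NSC, 2 to 6 for OPCL61 minus NSCL61 and 3 to 5 for OPCL61 minus OPC. The lowest OPCL61 minus NSCL61 counts came without NSCL61 replicate 1 or 2.

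Uncalled values that changed sign were, with probe sets averaged per gene, Bmp7 in ASTL61 (0.10) and in NSCL61 (-0.063), and, with median centring, Id2 in OPCL61 (0.024). Leaving out each array gave ranges across 0 for Bmp6 (-0.11 to 0.79), Bmp7 (-0.048 to 0.018), Grem1 (-0.75 to 0.32) and Id1 (-0.41 to 0.78) in ASTL61, for Bmp7 (-0.0064 to 0.17) and Id2 (-0.14 to 0.38) in NSCL61, and for Id1 (-0.035 to 0.47) and Id2 (-0.57 to 0.56) in OPCL61. The cause was not tested.

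Replicate numbers did not pair the samples: replicate differences correlated between groups at -0.196 to 0.105. With a replicate block 5 members were called in NSCL61 and 5 in OPCL61, as without it, and 3 instead of 5 other extracellular antagonists and modulators and 1 instead of 0 BMP Smads in OPCL61. The block also ended the call on the Bmp7 difference between the OPC and AST line changes (-0.60, adjusted p = 0.0579). With both NSC arrays out of the model, an alternative chosen after seeing the data, 6 members were called for OPCL61 minus NSCL61 and 6 for ASTL61 minus NSCL61.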
